A study of Mus musculus with 60 samples.

Results

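Drd2, Adora2a, Penk, Gpr6 and Sp9, which are 5 of a list of 6 genes that mark the indirect-pathway projection neurons of the striatum, were followed across 60 RNA-seq libraries of mouse brain. They were taken by gene symbol from the 47574 entries used of each library's expression table, and the listed gene Gpr52 was not analysed here.

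The mice were c57BL-6N, 3 months of age, and came from 2 lines that carry different edits of the huntingtin gene Htt. In the Δ12 line, part of exon 12 was deleted, and the labels give the genotypes +/+, Δ12/+ and Δ12/Δ12. In the KO line, an imprecise deletion at the same exon made a null allele, and the labels give +/+ and KO/+, each line having its own +/+ mice. Labelled cortex and labelled striatum were each sequenced from 3 males and 3 females of every genotype, which makes 10 groups of 6 libraries. Each line is 1 edited allele, and a library is a dissected piece of tissue with all the cell types it holds. By the study's account the mice compared were littermates. Whether a cortex and a striatum library of the same sex and number came from the same mouse is not stated in the sources used here, and p-values measure the spread between libraries grouped as labelled.

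Striatal projection neurons fall into the direct pathway, which carries the D1 dopamine receptor, and the indirect pathway, which carries the D2 dopamine receptor and projects to the external globus pallidus. In an indirect-pathway neuron the D2 receptor (Drd2) lowers and an adenosine receptor (Adora2a) raises the activity of the same adenylyl cyclase, and the neuron releases enkephalin, which is cut from the precursor that Penk encodes. Gpr6 is an orphan receptor that raises cAMP, and Sp9 is a zinc-finger transcription factor needed for these neurons to form. Drd2 is also expressed by the cholinergic interneurons of the striatum, and Penk by other neurons of the forebrain.

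In the files' coordinates, which are those of mouse build GRCm38, Drd2 (ENSMUSG00000032259) lies at chr9:49340662-49407214 on the plus strand. Adora2a (ENSMUSG00000020178) lies at chr10:75316943-75334788 on the plus strand. Penk (ENSMUSG00000045573) lies at chr4:4133531-4138819 on the minus strand. Gpr6 (ENSMUSG00000046922) lies at chr10:41069989-41072285 on the minus strand, and Sp9 (ENSMUSG00000068859) lies at chr2:73271925-73284706 on the plus strand. All 5 are protein-coding genes, and each FPKM value counts fragments over the whole gene's exons.

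The 250 bases upstream of the RefSeq start (GRCm38.p6) were at hand for 3 of the 6 listed genes and are shown because the 5 genes moved together across libraries. For Drd2 that start lies upstream of the gene start given above, 49340662, and its window ends at 49340402. The windows were searched on both strands for GGGCGG, the core of the GC box bound by Sp-family factors, and for TGACGTCA, the full cAMP response element. They were also searched for the shorter form CGTCA, which the full element holds on both strands, and for the motif TATAAA. Capitals mark the matches in the Sp9 window, chr2:73271676-73271925 on the plus strand, the Drd2 window, chr9:49340153-49340402 on the plus strand, and the Gpr6 window, chr10:41072291-41072540 on the minus strand.
Sp9: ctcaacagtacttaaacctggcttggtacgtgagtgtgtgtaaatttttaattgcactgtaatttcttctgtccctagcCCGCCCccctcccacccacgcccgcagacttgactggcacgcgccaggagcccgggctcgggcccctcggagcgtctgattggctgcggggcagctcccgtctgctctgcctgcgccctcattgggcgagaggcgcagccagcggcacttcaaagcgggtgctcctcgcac
Drd2: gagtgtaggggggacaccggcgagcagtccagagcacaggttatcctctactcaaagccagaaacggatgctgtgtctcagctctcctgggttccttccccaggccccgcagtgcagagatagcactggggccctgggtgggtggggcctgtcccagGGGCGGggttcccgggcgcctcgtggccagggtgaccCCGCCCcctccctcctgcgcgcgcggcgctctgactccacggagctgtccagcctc
Gpr6: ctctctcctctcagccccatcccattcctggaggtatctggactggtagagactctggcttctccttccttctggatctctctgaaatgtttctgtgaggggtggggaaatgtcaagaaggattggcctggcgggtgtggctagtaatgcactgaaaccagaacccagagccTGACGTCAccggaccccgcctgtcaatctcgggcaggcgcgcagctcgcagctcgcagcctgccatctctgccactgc
The Drd2 window held 2 GC boxes and the Sp9 window held 1, against 32.7% of 32851 windows of the same length that held at least 1. The Gpr6 window held the full cAMP response element, which 1.55% of those windows held, and 17.8% held the shorter form. None of the 3 windows held TATAAA, which 12.4% of windows did. The 3 windows shared a high content of G and C, 68.8% in Drd2, 62.4% in Sp9 and 58.4% in Gpr6, against a median of 52.4% over all windows. They held 15, 18 and 9 CpG dinucleotides in that order, against a median of 6. These matches are letters in a window, and no binding was measured.

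Before any comparison, the labels were set against marker genes. A library was called cortex-like where Slc17a7, the vesicular glutamate transporter of cortical neurons, had an FPKM above 100, and striatum-like otherwise. This gave 30 libraries of each kind, and hierarchical clustering gave the same division for 60 of 60. The tissue seen this way went with the labelled tissue in 30 of 60 libraries. All 24 libraries of the KO line were striatum-like, and so were the 6 libraries labelled female Δ12/Δ12, while the 6 labelled male Δ12/Δ12 and all 24 labelled +/+ or Δ12/+ of the Δ12 line were cortex-like. Labelled sex went with Xist and Ddx3y in 30 of 60 libraries. Htt was below every +/+ library of its line and labelled tissue in 7 of the 12 libraries labelled KO/+, and in 3 of the 6 among those labelled striatum. Groups are therefore called by what they are labelled, and no library was moved between them.

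The 2 kinds of library also differed in genes other than the one that divided them. The mitochondrial transcript mt-Nd4 had a rescaled FPKM of 280 to 910 in the striatum-like and 6.31 to 67.9 in the cortex-like libraries. Of 154 entries for small nuclear and nucleolar RNAs, 21 to 34 were above 0 in a striatum-like library and 38 to 63 in a cortex-like one. The median log2 ratio of striatum-like to cortex-like was larger for longer genes, from -0.41 over the 3997 genes with the shortest summed exons to 0.53 over the 3997 with the longest. Avp, the vasopressin precursor of the hypothalamus, was at 0.445 to 188 in cortex-like and 0 to 53.3 in striatum-like libraries, ranges that overlapped. Line, labelled genotype, tissue seen and kind of library run together here, and their parts in a level cannot be told apart. Depth, estimated from the steps of low values, was 13100000 to 27800000 fragments per library. It was 16600000 to 27800000 (median 18500000) in striatum-like and 13100000 to 19700000 (median 14800000) in cortex-like libraries.

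The 5 genes were high in every striatum-like library and low in every cortex-like library, on a scale of FPKM divided by a median-of-ratios size factor (rescaled FPKM). Drd2, the receptor by which dopamine restrains these neurons, had a rescaled FPKM of 34.8 at the lowest, 50.2 at the median and 71.3 at the highest over the 30 striatum-like libraries, and 0, 0.809 and 15.9 over the 30 cortex-like ones. The medians differed 62.1-fold. Adora2a had 47.8, 68.5 and 98.9 against 1.71, 3.41 and 22.1, a 20.1-fold difference of medians. Both receptors were thus separated by a gap with no library in it. Penk, the enkephalin precursor, had 283, 384 and 563 against 19.5, 36.3 and 150, with medians 10.6-fold apart. Gpr6 had 15.9, 21.5 and 34.1 against 2.04, 3.52 and 9.04, with medians 6.12-fold apart. Sp9 had 2.28, 3.16 and 3.92 against 0, 0.413 and 1.35, with medians 7.65-fold apart. The cortex-like levels of Drd2 and Sp9, and so their folds, rest on few fragments. Estimated from the confidence bounds deposited with each value above 0, the medians were 20.0 fragments for Drd2 and 14.2 for Sp9. In striatum-like libraries they were 1192 and 182. No member had a cortex-like library above its lowest striatum-like one, and 19.3% of all 16076 genes tested showed the same complete separation. Ranked by the log2 ratio of medians after adding 0.5 to each, Drd2 stood 6th, Adora2a 14th, Penk 43rd, Gpr6 245th and Sp9 618th. Since the libraries were divided by a measured gene, these values are a description with no test. In bulk tissue, fewer cells of a type and less RNA per cell cannot be told apart.

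The members are short to middling genes, so the trend with length was set beside their ratios. Penk (1634 nt of exons) and Gpr6 (1786 nt) are among the 3997 shortest genes, whose log2 ratio of medians, after adding 0.5 to each, was -0.41 at the middle and 1.72 at the 95th percentile. Drd2 (2547 nt) and Adora2a (3062 nt) are among the next 4000, with -0.10 and 1.71, and Sp9 (5044 nt) among the 3992 after them, with 0.25 and 1.84. On the same scale the members' own ratios were 5.28 for Drd2, 4.14 for Adora2a, 3.38 for Penk, 2.45 for Gpr6 and 2.00 for Sp9, each above the 95th percentile for its length. The part of length in the members' ratios was not tested.

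Within the cortex-like libraries the same library was the highest for all 5 genes. It was labelled striatum Δ12/+ male3, with Drd2 at 15.9, Adora2a at 22.1, Penk at 150, Gpr6 at 9.04 and Sp9 at 1.35, where the next highest cortex-like library had 3.88, 8.73, 67.5, 6.27 and 0.797. At the other end, Drd2 and Sp9 were listed at 0 in the library labelled cortex Δ12 line +/+ female1. That library had 14912 entries above 0, the fewest of the 60 libraries.

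**Figure D1:**
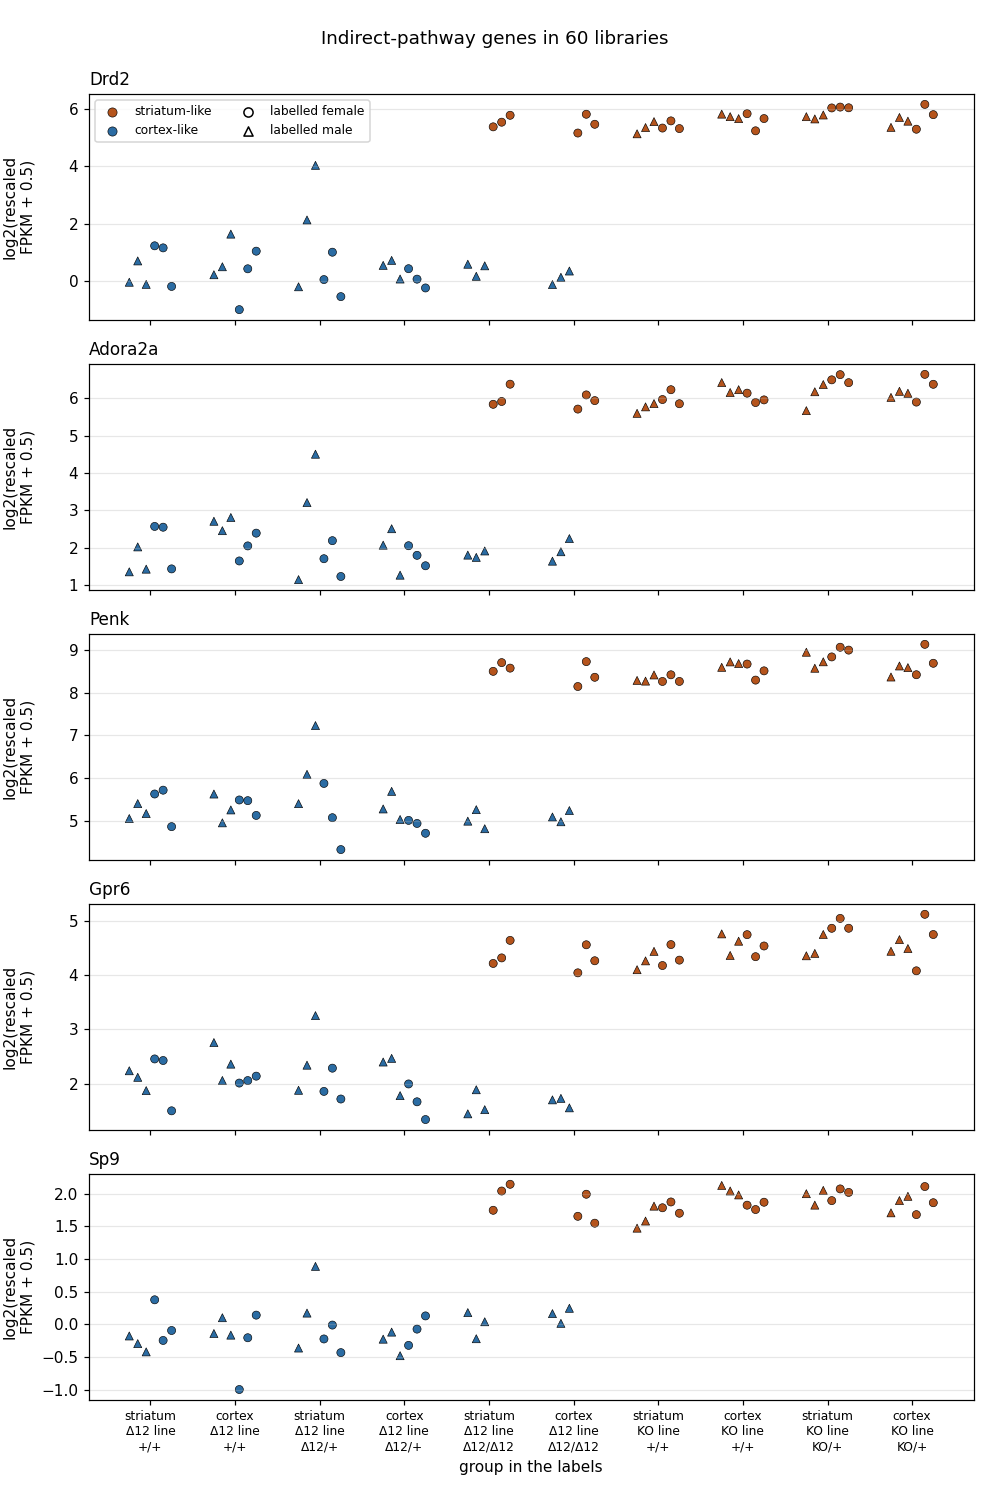
Levels of the 5 genes, as log2(rescaled FPKM + 0.5), in each of the 60 libraries (points), by the group in the labels; colour marks the tissue seen by Slc17a7, circles labelled females and triangles labelled males. The 30 striatum-like libraries lie above the 30 cortex-like ones for every gene, and the highest blue point is always labelled striatum Δ12/+ male3.

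FPKM is per length, so the 5 levels can be ranked within a library. The order in striatum-like libraries was Penk, Adora2a, Drd2, Gpr6, Sp9. Penk exceeded Adora2a in 30 of 30 of them, with a ratio of 5.51 at the median and 4.56 to 9.86 over the libraries. Drd2 exceeded Gpr6 in 30 of 30, with a median ratio of 2.19 (1.90 to 2.65), and Gpr6 exceeded Sp9 in 30 of 30, with a median ratio of 7.00 (5.36 to 8.94). The close neighbours were the 2 receptors. Adora2a exceeded Drd2 in 29 of 30, with a median ratio of 1.41, and the ranges of the 2 genes over libraries overlapped (47.8 to 98.9 and 34.8 to 71.3). The exception was the library labelled striatum KO/+ male1, where Adora2a was 50.3, Drd2 was 52.8 and the ratio 0.951, the next lowest ratio being 1.20. In the same library Penk to Drd2 was highest of the 30, at 9.38, and Gpr6 to Drd2 lowest, at 0.377. In cortex-like libraries Penk was again the highest, but Gpr6 was above Drd2 in all but 1 of them, the library labelled striatum Δ12/+ male3. There Adora2a and Gpr6 did not keep an order, with a ratio of 0.486 to 2.45 and a median of 1.01.

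Over striatum-like libraries the genes varied together. The coefficient of variation was 19.4% for Drd2, 20.0% for Adora2a, 18.3% for Penk, 20.5% for Gpr6 and 14.1% for Sp9, against a median of 13.6% over 13974 genes. Pearson's r between pairs of members, on log2(rescaled FPKM + 0.5) over the 30 libraries, ran from 0.70 (Adora2a with Penk) to 0.92 (Drd2 with Gpr6) with a median of 0.79 over the 10 pairs. Without the 2 libraries farthest from the median of the first gene, those 2 pairs had 0.58 and 0.90. The corresponding values of Spearman's rho over all 30 were 0.66 and 0.91. No p is given, because the points share a divided set of libraries, the same scaling and, where labelled sex and number match, possibly a mouse.

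Of the direct-pathway genes correlated singly, Drd1, Tac1 and Chrm4 varied with those of the indirect one, Pdyn less so and Isl1 hardly. The others on that list were correlated only through the list's mean. Drd1, the D1 receptor, had r = 0.94 with the mean of the members, 14th of 13969 genes, and the ratio of Drd2 to Drd1 was 0.947 to 1.299 over the 30 libraries with a median of 1.08. Its coefficient of variation was 5.96%, below that of every member alone. Tac1, the substance P precursor of the direct pathway, had r = 0.86, and Ppp1r1b (DARPP-32), found in both pathways, had 0.90. Chrm4, a muscarinic receptor of the direct pathway, had r of 0.67 to 0.93 over the members and Pdyn, the dynorphin precursor, 0.30 to 0.70. Isl1, a transcription factor of direct-pathway development, had only 0.05 to 0.16. Over the members, r with the mean of 9 direct-pathway genes was 0.73 to 0.91 and with the mean of 11 genes of all striatal projection neurons 0.80 to 0.94. In cortex-like libraries the ratio of Drd2 to Drd1 was 0 to 0.843 with a median of 0.101.

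**Figure D2:**
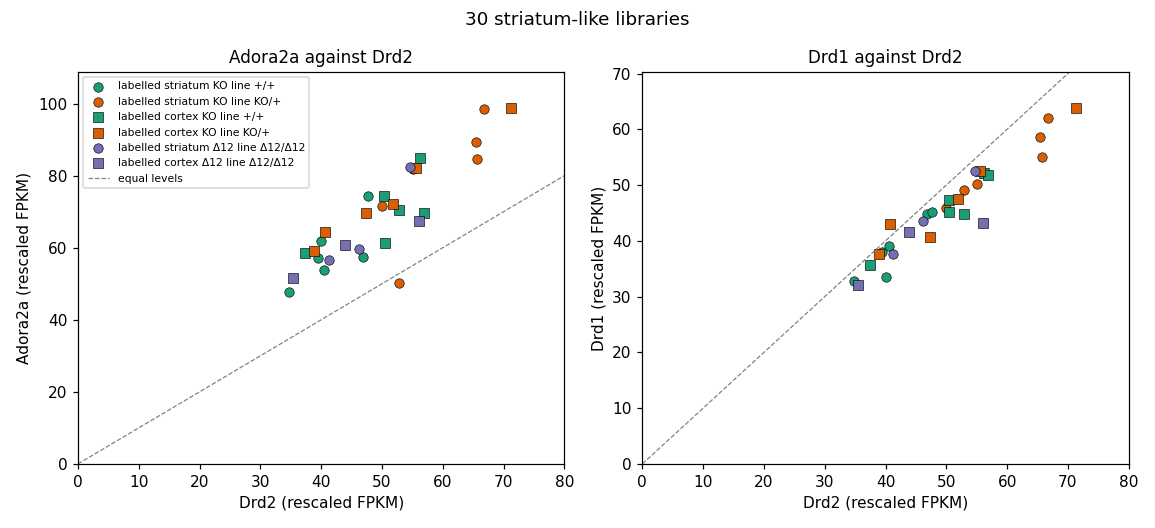
Rescaled FPKM of Adora2a (left) and Drd1 (right) against Drd2 in the 30 striatum-like libraries, 1 point each, coloured by labelled genotype, with circles for labelled striatum and squares for labelled cortex; the dashed line marks equal levels. The library labelled striatum KO/+ male1 is the 1 point below the line on the left, and Drd2 to Drd1 stays between 0.947 and 1.299 on the right.

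The genes whose pattern was most like the mean of the members were Pde1b (r = 0.96), a calcium-dependent phosphodiesterase, Gng7 (0.96), a G protein gamma subunit, Smpd3 (0.95), Fbxl16 (0.95) and Adcy5 (0.95), the main adenylyl cyclase of the striatum. Adcy5 acts downstream of Drd1, Drd2 and Adora2a. The 3 most opposite were Efr3a (-0.92), Slc8a1 (-0.90) and Ppm1e (-0.89). One member at a time, the 3 nearest genes were Gnal (0.96), Gng7 (0.96) and Drd1 (0.95) for Drd2, and for Adora2a they included Camk4 (0.93) and Smpd3 (0.93). For Penk they were Cap1 (0.92), Plppr4 (0.92) and Drd2 (0.91), for Gpr6 they were Pde1b (0.94), Arpp21 (0.93) and Drd1 (0.93), and for Sp9 they were Lingo3 (0.89), Sez6 (0.89) and Asic1 (0.88).

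Other genes reported in indirect-pathway neurons were less close. Six3, a transcription factor of their development, had r = 0.34 with the mean of the members, Grik3, a kainate receptor, had 0.59, Ptprm had -0.05 and Plxdc1 had -0.18. Chat, the enzyme of the cholinergic interneurons that share Drd2, had 0.54, and Drd2 was 8.20 to 15.3 times its level. Genes of neighbouring tissue ran the other way. Slc17a6, the glutamate transporter of thalamic and hypothalamic neurons, had r of -0.87 to -0.73 with the members, and Tcf7l2, a transcription factor of the thalamus, had -0.75 to -0.60. The part that the makeup of each dissected piece has in these correlations was not tested.

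**Figure D3:**
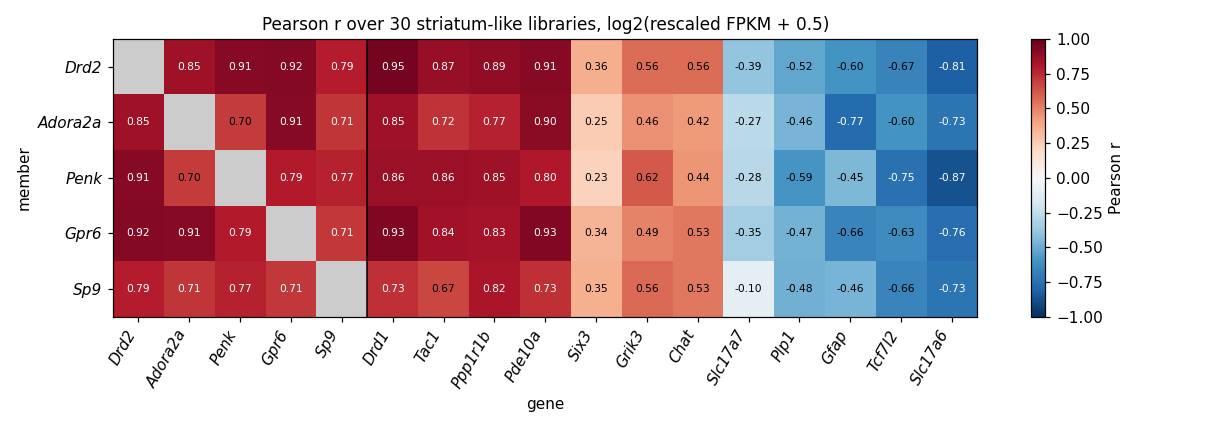
Pearson's r over the 30 striatum-like libraries between each of the 5 genes (rows) and the 5 genes and 12 others (columns), on log2(rescaled FPKM + 0.5), red positive and blue negative. Drd1, Tac1, Ppp1r1b and Pde10a are as red as the members themselves, and Tcf7l2 and Slc17a6 are blue in every row, from -0.87 to -0.60.

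The KO line asks what the loss of 1 Htt copy does, and both labelled tissues of that line were striatum-like. Since Htt was below every +/+ library in only 3 of the 6 libraries labelled striatum KO/+, the differences below are between libraries by their labels, and whether labels were exchanged between libraries was not tested. In labelled striatum the median of each of the 5 genes was higher in KO/+ than in +/+, and 4 of the 5 passed limma with Benjamini-Hochberg adjustment at 0.05, where 8.30% of 15808 genes did. Drd2 had a rescaled FPKM of 34.8, 40.3 and 47.7 (lowest, median, highest of 6) in +/+ and 50.0, 60.2 and 66.8 in KO/+. The groups did not overlap, and the log2 difference was 0.51 (SE 0.078, 95% interval 0.34 to 0.68, limma adjusted p = 0.0028). Penk had 308, 311 and 343 in +/+ and 382, 477 and 537 in KO/+. It did not overlap either, with a log2 difference of 0.54 (SE 0.073, limma adjusted p = 0.0015). Adora2a had 47.8, 57.3 and 74.3 in +/+ against 50.3, 83.3 and 98.4 in KO/+, and 4 of 6 KO/+ libraries lay above all +/+ ones. Its log2 difference was 0.41 (SE 0.11, limma adjusted p = 0.034). Gpr6 had 16.6, 18.7 and 23.1 against 19.9, 27.4 and 32.4, again with 4 of 6 above, and a log2 difference of 0.41 (SE 0.10, limma adjusted p = 0.026). Sp9 had 2.28, 2.85 and 3.17 against 3.05, 3.53 and 3.71 with 5 of 6 above, and its log2 difference of 0.27 (SE 0.082) did not pass (limma adjusted p = 0.060). The share of all genes whose 2 groups separate in these ways is not given here. Of the 15808 genes, 3456 had an unadjusted limma p under 0.05.

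The count of 4 changed with the settings and with single libraries, and Adora2a and Gpr6 were the calls that were lost. On the FPKM as deposited neither passed (limma adjusted p = 0.23 for Adora2a and 0.18 for Gpr6), nor without the filter on low values (0.068 and 0.052). Neither passed with the sex seen in the expression as covariate (limma adjusted p = 0.14 and 0.064), an alternative added after seeing the data. Adora2a alone was lost with quantile normalization (limma adjusted p = 0.057) and without the sex covariate (0.10). The count was 2 without any 1 of the +/+ libraries male1, female1 and female3 or of the KO/+ libraries male3, female1, female2 and female3, 3 without male2 of either group, and 5 without +/+ male3. Drd2 and Penk passed in each of the 12 fits with a library left out. Sex went with its label in 2 of the 6 +/+ and 5 of the 6 KO/+ libraries of labelled striatum. With only those 7 libraries, an alternative chosen after seeing the data, 0 members passed, with log2 differences of 0.47 for Drd2 and 0.55 for Penk (limma adjusted p = 0.22 and 0.16), and 14 genes in all passed.

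Genes common to all striatal projection neurons rose in the same comparison. All 11 on the list did so, with a median log2 difference of 0.43 against 0.02 over all genes tested. Ppp1r1b had 345, 429 and 518 in +/+ and 533, 621 and 664 in KO/+ (log2 0.52, limma adjusted p = 0.0020). Of 9 direct-pathway genes 6 rose, 3 did not pass, and the median was 0.42. Drd1 had 32.9, 38.5 and 45.2 in +/+ against 45.9, 52.6 and 62.1 in KO/+ (log2 0.46, limma adjusted p = 0.0085), and Tac1 had a log2 difference of 0.50 (limma adjusted p = 0.0022). The members' own median was 0.41. The mean log2 level of the members less that of the direct-pathway genes was 1.46 to 1.71 in +/+ and 1.503 to 1.71 in KO/+, with medians of 1.53 and 1.66. The ranges overlapped, with the higher median in KO/+, and this difference was not tested. Of 5 other genes reported in indirect-pathway neurons, Grik3 rose (log2 0.39, limma adjusted p = 0.0029), while Six3 (-0.07), Ptprm (-0.05), Plxdc1 (-0.17) and Upb1 (0.12) did not pass, and the median was -0.05.

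The signalling chain that the 2 receptors share was mixed. Of 19 genes of receptor signalling, 10 rose, 2 fell and 7 did not pass, with a median of 0.29. Adcy5 rose by 0.41 and Gnal, the G protein alpha subunit that couples Drd1 and Adora2a to it, by 0.35 on the log2 scale (limma adjusted p = 0.0090 and 0.0034). Gnas, the alpha subunit that serves this step in most other tissues, had 197 to 265 in +/+ and 139 to 178 in KO/+, a log2 difference of -0.49 (limma adjusted p = 0.0028). Gnai1, an inhibitory alpha subunit, had a log2 difference of -0.24 (limma adjusted p = 0.032). Of 8 genes of enkephalin processing and reception, Pcsk2, a protease that cuts the precursor, rose by 0.27 and Oprd1, the delta opioid receptor, by 0.42 (limma adjusted p = 0.011 and 0.023), and 6 did not pass, with a median of 0.11. Of 10 relatives of the members tested, Drd1 and Pdyn, the dynorphin precursor, rose, Pnoc, the nociceptin precursor, fell by 0.95 and 7 did not pass, with a median of 0.15. None of 5 genes of cholinergic interneurons passed. Chat, the first of them, had 3.99 to 5.11 in +/+ and 3.72 to 5.84 in KO/+.

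Markers of tissue around the striatum moved with the same 2 groups. All 3 thalamus genes fell, and their summed rescaled FPKM was 12.9 to 26.1 in +/+ and 4.12 to 6.56 in KO/+. Slc17a6 was at 5.60 to 13.4 in +/+ and 0.483 to 2.11 in KO/+. Of 4 hypothalamus genes, 3 fell, and their sum was 6.16 to 139 against 0 to 1.55, with Pmch, the precursor of melanin-concentrating hormone, at 4.76 to 58.5 in +/+ and listed at 0 in 5 of 6 KO/+ libraries. All 4 oligodendrocyte genes fell, with sums of 891 to 1071 against 733 to 825. Of 5 astrocyte genes 1 fell (sums 143 to 184 against 128 to 160), and of 7 cortical genes 1 rose and 1 fell (23.9 to 41.9 against 17.8 to 58.1). None of 4 microglia genes (39.4 to 46.2 against 43.5 to 50.7), 5 choroid plexus genes (348 to 1660 against 327 to 1376) or 5 immediate early genes (64.3 to 127 against 103 to 145) passed. The part of the surrounding tissue in the rise of the members was not tested.

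**Figure D4:**
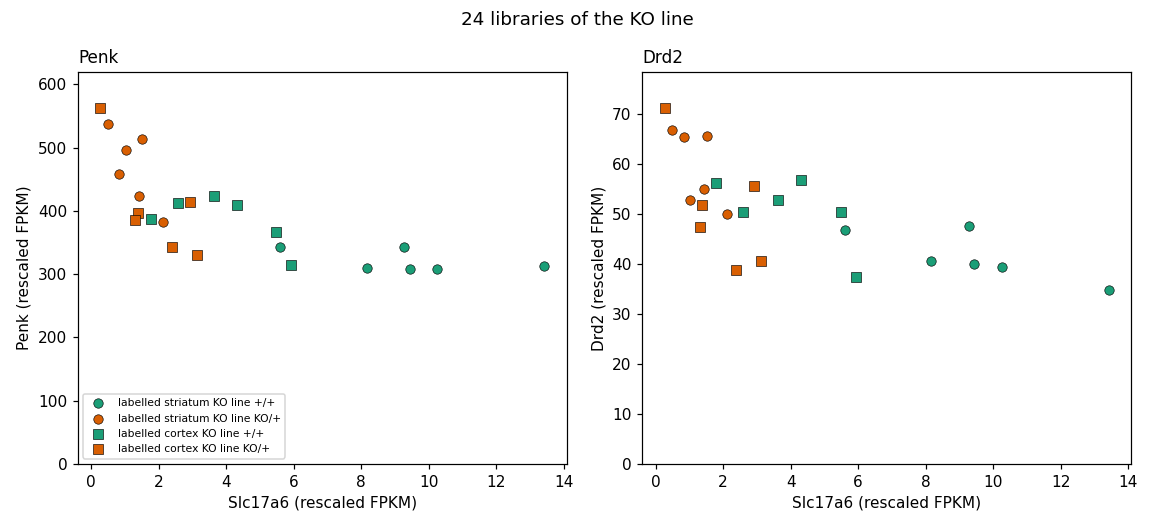
Rescaled FPKM of Penk (left) and Drd2 (right) against Slc17a6 in the 24 libraries of the KO line, 1 point each, circles for labelled striatum, squares for labelled cortex, green for +/+ and orange for KO/+. The +/+ libraries of labelled striatum lie at the right, with Slc17a6 at 5.60 to 13.4, and the KO/+ ones at the left, with 0.483 to 2.11.

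In labelled cortex of the KO line none of the 5 members passed, none had an unadjusted p under 0.05, and 0.114% of 15820 genes passed limma with Benjamini-Hochberg adjustment, 2198 having an unadjusted p under 0.05. Drd2 had a rescaled FPKM of 37.4, 51.7 and 56.8 in +/+ and 38.9, 49.6 and 71.3 in KO/+, with a log2 difference of -0.01 (95% interval -0.32 to 0.30). Penk had 315, 398 and 423 against 331, 391 and 563, with a log2 difference of 0.06 (-0.21 to 0.32). The groups overlapped for both genes. Adora2a had a log2 difference of 0.08, Gpr6 of 0.03 and Sp9 of -0.06, with intervals of -0.19 to 0.35, -0.29 to 0.34 and -0.26 to 0.13. Here Slc17a6 was at 1.78 to 5.93 in +/+ and 0.266 to 3.12 in KO/+, ranges that overlapped. The summed thalamus genes (5.34 to 14.4 against 3.34 to 9.15) and oligodendrocyte genes (722 to 952 against 644 to 905) overlapped too. The hypothalamus sums did not, at 1.79 to 28.1 in +/+ and 0.365 to 1.17 in KO/+. The part of the surrounding tissue was not tested here either.

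The difference between the labelled tissues was tested in 1 limma fit over the 24 libraries, added after the data were seen. The interaction passed for 0 members and for 0% of 15917 genes after Benjamini-Hochberg adjustment, with 3 members and 1784 genes at an unadjusted p under 0.05. It was 0.52 on the log2 scale for Drd2 (95% interval 0.16 to 0.88, limma adjusted p = 0.31) and 0.48 for Penk (0.18 to 0.78, limma adjusted p = 0.28). Over both labelled tissues together, 1 member passed where 9.67% of genes did. That was Penk, with a log2 difference of 0.30 (SE 0.087, limma adjusted p = 0.030). That fit and the interaction fit take the 24 libraries as independent. The replicate block of labelled sex and number puts +/+ and KO/+ libraries, which are different mice, in the same block. It therefore does not account for cortex and striatum libraries that may share a mouse. With that block Penk missed the threshold (limma adjusted p = 0.051), as it did without the filter (0.053) and on the FPKM as deposited (log2 0.17, 0.32).

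**Figure D5:**
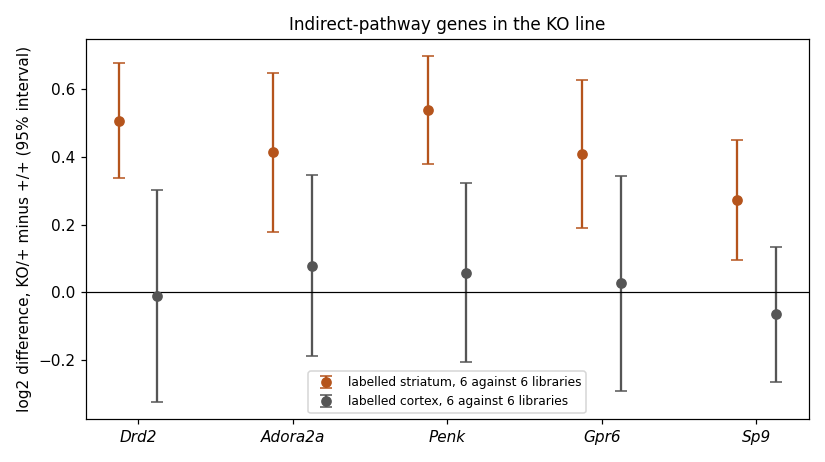
Log2 differences of the 5 genes between KO/+ and +/+ libraries, with 95% intervals, in labelled striatum (orange) and labelled cortex (grey), 6 libraries against 6 in each. The labelled striatum differences run from 0.27 for Sp9 to 0.54 for Penk and those of labelled cortex from -0.06 to 0.08, and the difference between the 2 did not pass for any gene.

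In the Δ12 line, the genotype labels and the tissue seen run together. In labelled striatum, 3 of 5 members passed for Δ12/Δ12 against +/+, where 28.9% of 15467 genes did. Drd2 was at 0.377 to 1.84 in +/+. In Δ12/Δ12 it was 0.621, 0.944 and 1.00 in the 3 labelled males and 41.2, 46.2 and 54.7 in the 3 labelled females. The males lay within the range of +/+ and the females within that of the KO line. Penk showed the same division, at 28.5 to 52.0 in +/+, 27.6, 31.3 and 37.8 in the males and 363, 382 and 418 in the females. The log2 differences were 2.54 for Drd2, 2.04 for Adora2a and 1.13 for Sp9 (limma adjusted p = 0.035, 0.034 and 0.030), 1.51 for Penk, which missed the threshold (limma adjusted p = 0.050), and 0.90 for Gpr6 (limma adjusted p = 0.12). Sp9 had a mean of 0.42 in +/+ and reached the minimum mean of 0.5 only through the labelled females of Δ12/Δ12, so its call is no support for a difference. Without that filter 6.33% of genes passed. Sp9 was the only member among them (limma adjusted p = 0.048), and Drd2 and Adora2a were not (0.054 for each). Without any 1 of the 3 labelled female libraries of +/+ or of Δ12/Δ12, 0 members passed. With the tissue seen as a covariate 0 members passed too, where 0.149% of genes did. Only the labelled females of Δ12/Δ12 were striatum-like, so that covariate takes them up and leaves the difference between labelled males. In that fit Drd2 had 0.25, Adora2a 0.22 and Sp9 0.30, while Penk and Gpr6 had -0.19 and -0.46.

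In labelled cortex of the Δ12 line, 0 members passed for Δ12/Δ12 where 0.593% of genes did, with 4 members at an unadjusted p under 0.05, Sp9 again reaching the minimum mean only through Δ12/Δ12, and the division was the same. Drd2 was at 0 to 2.61 in +/+, 0.418, 0.594 and 0.773 in the Δ12/Δ12 males and 35.4, 43.9 and 56.1 in the females. Against the same +/+ libraries, Δ12/+ gave 0 of 4 members tested in labelled striatum (0.00663% of genes passed) and 0 of 4 in labelled cortex (0.0729%), with none at an unadjusted p under 0.05. Sp9 was below the minimum mean level of 0.5 in both. Drd2 was at 0.185, 1.02 and 15.9 in labelled striatum Δ12/+ and at 0.345, 0.698 and 1.15 in labelled cortex Δ12/+.

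Labelled striatum against labelled cortex, over all 60 libraries, gave 0 of 5 members where 0% of 16076 genes passed limma, with no member and 386 genes at an unadjusted p under 0.05. Drd2 spanned 0.185 to 66.8 in the 30 libraries labelled striatum and 0 to 71.3 in the 30 labelled cortex. Of the 30 striatum-like libraries, 15 were labelled cortex.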

How the data were processed

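RNA was extracted with a column kit, ribosomal RNA was depleted, and directional libraries were sequenced, per the labels. The submitters' processing notes name bcl2fastq 2.20, Trimmomatic 0.30, TopHat2 2.0.14, SAMtools 1.3 and HTSeq 0.6.1p1 and build GRCm38.p4. The deposited tables hold 1 library each, with FPKM (fragments scaled to transcript length and to mapped fragments) per gene, made by the authors in the layout of Cufflinks output; the program is not given in the sources used here. Of 47597 entries, 23 marked as failed in a library were left out. FPKM were divided by median-of-ratios size factors over the 13235 entries above 0 in every library. Depth was estimated from genes of 20 to 100 whole fragments (within 0.01), and FPKM carry no exact counts.

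Each comparison was fitted with limma 3.58.1 (R 4.3.3; trended, robust eBayes) on log2(rescaled FPKM + 0.5), adjusting for labelled sex, over genes whose mean was at least 0.5. The interaction, the fit over both labelled tissues and the alternatives that use the sex seen in the expression were chosen after seeing the data. Benjamini-Hochberg adjustment covered all genes tested, at 0.05. A difference on this scale understates the change of low genes. Descriptions used Python 3.11.15, scipy 1.17.1 and pandas 2.3.3. The fits were tested on simulated data. Groups came from the labels. For 1 library the title and the genotype label name different lines, and the genotype label was used.

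Genes named are the members, the 5 genes most and 3 least correlated with their mean and 3 per member (mean of at least 1 in striatum-like libraries), and genes of the lists, of which 1 gene is not reported here. Members and lists were chosen with earlier results of these data known. Alternatives were the FPKM as deposited, quantile normalization, a pseudocount of 0.1, no filter, no sex covariate, a replicate block, the tissue or sex seen in the expression, and leaving out each library.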

Additional observations from a re-analysis of the deposited data

Results flagged for a closer look

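In 8 of 50 combinations of gene and labelled group, 1 library stood apart from the other 5 by Dixon's criterion, which chance alone exceeds in about 1 of 20 groups. In 5 of the 8 it was the library labelled striatum Δ12/+ male3, with Drd2 at 15.9, Adora2a at 22.1, Penk at 150 (149.866), Gpr6 at 9.04 and Sp9 at 1.35, where the next highest libraries of its group had 3.88, 8.73, 67.5, 4.58 and 0.626. The other 3 were Drd2 in labelled cortex KO line +/+ female2, at 37.4 with the next lowest at 50.4, Penk in labelled cortex KO/+ female2, at 563 with the next highest at 414, and Sp9 in labelled striatum Δ12 line +/+ female1, at 0.797 with the next highest at 0.436.

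Opposite directions were looked for between labelled females and labelled males within each labelled tissue, and between the labelled tissues. Of 45 such checks, 6 found them, all between labelled females and labelled males, and these differences were not tested. For Δ12/Δ12 against +/+ in labelled cortex, the female less the male log2 difference was 6.00 for Drd2, 4.61 for Adora2a, 3.23 for Penk and 2.94 for Gpr6, and in labelled striatum it was 2.71 for Gpr6. In these 5, the labelled females of Δ12/Δ12 were striatum-like and the labelled males cortex-like. The remaining one was Sp9 for Δ12/+ in labelled cortex, with a difference of 0.47 between 0.27 in females and -0.21 in males, at levels of 0 to 0.602.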

How the results depend on the processing

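Of 367 values recomputed under alternatives, leave-one-out apart, 313 were ranked as unchanged. For a member's difference this meant the same direction and the same side of the threshold. A count of members could move a little, as from 4 to 3, and a descriptive value could move within its spread. Another 11 changed sign, none of them called. The cause was not tested for any of them. In labelled striatum of the KO line the count of members passing was 4. It was 2 on the FPKM as deposited (Drd2 and Penk), without the filter, and with the sex seen in the expression as covariate. Of all genes 2.72%, 3.70% and 8.19% passed in that order. The count was 0 with only the libraries whose sex goes with the label (0.0887% of genes), and 2 to 5 with 1 library left out. On the FPKM as deposited 421 genes passed, 43 higher and 378 lower, against 1312, 714 higher and 598 lower, the median difference of all genes moving from 0.02 to -0.06. With quantile normalization 1217 passed, 530 higher and 687 lower. In labelled cortex the scale as deposited moved the median of all genes from 0.00095 to -0.15, and there Adora2a was -0.088, Penk -0.11 and Gpr6 -0.14. Drd2 was 0.024 with quantile normalization. For Δ12/Δ12 in labelled striatum the count was 3, where 28.9% of genes passed. It was 1 without the filter, where 6.33% of genes passed. It was 0 without the sex covariate (0.0582% of genes), 0 with the replicate block (0.0323%) and 0 with the tissue seen (0.149%). With 1 library left out it was 0 to 4. With the tissue seen as covariate, which leaves the difference between labelled males, Penk was -0.19 and Gpr6 -0.46 there. The same covariate gave -0.67 for Drd2, -0.73 for Adora2a, -0.18 for Penk and -0.73 for Gpr6 in labelled cortex. In labelled cortex the count for Δ12/Δ12 was 0 to 1 with 1 library left out, Sp9 passing without +/+ male2. Over both labelled tissues of the KO line the count was 1. It was 0 on the FPKM as deposited, without the filter and with the replicate block. Of all genes 14.4%, 4.75% and 8.27% passed in that order, and Sp9 was -0.0085 on the FPKM as deposited. The log2 ratios of striatum-like to cortex-like medians on the FPKM as deposited were 5.57 for Drd2, 3.95 for Adora2a, 3.00 for Penk, 2.25 for Gpr6 and 2.56 for Sp9, against 5.96, 4.33, 3.40, 2.61 and 2.93 when rescaled. The replicate block (labelled sex and number) left the count in labelled striatum of the KO line at 4, where 773 genes passed in place of 1312. Among 45 pairs of groups, all 6 correlations between deviations of same-numbered libraries were above 0.1 in 1, labelled cortex with labelled striatum of Δ12/Δ12 (0.40 to 0.66), where a shared labelled sex is also a shared tissue seen. Between the labelled tissues of the Δ12 line +/+ and of KO/+ 3 of 6 were above 0.1, and of Δ12/+ and the KO line +/+ 1 of 6 each. Among 408 values with 1 library left out, 15 changed sign. In labelled cortex of the KO line those fits gave -0.12 to 0.071 for Drd2, -0.022 to 0.14 for Adora2a, -0.050 to 0.12 for Penk and -0.086 to 0.14 for Gpr6, and for Δ12/+ in labelled striatum -0.0082 to 0.74 for Adora2a and -0.081 to 0.23 for Gpr6.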
